A study of Mus musculus with 8 samples.

Results

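The E2F and DP transcription factors comprised 10 genes, Tfdp1, Tfdp2 and E2f1 to E2f8, which were found by their symbols among 42391 gene entries of the raw count matrix. They were chosen on a measured value, because Tfdp1 fell after Septin9 siRNA in both cell types, so the changes of Tfdp1 and of the other members in that contrast are given here as a description without a test. The 10 genes were counted in wild-type mouse myoblasts of both kinds, C2C12 cells, an established line of mouse myoblasts, and primary myoblasts grown out of hindlimb muscle of 5-week-old mice, from which fibroblastic cells had been removed by preplating. Each was transfected with a non-targeting control siRNA or with a single Septin9 siRNA (50 nM in C2C12 cells), and the 4 groups held 2 replicates each from independent experiments, 8 samples in all. C2C12 cells were collected 60 h after transfection, after 12 h in differentiation medium, and primary myoblasts 48 h after transfection in proliferation medium. Polyadenylated RNA was sequenced, and each sample held between 20898611 and 27223414 counted reads.

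E2F proteins bind DNA as dimers with a DP protein, Tfdp1 or Tfdp2, and switch the genes of DNA replication and of the cell cycle on or off. E2f1, E2f2 and E2f3 are known as activators, E2f4 and E2f5 act mostly as repressors together with the pocket proteins Rb1, Rbl1 and Rbl2, E2f6 represses without a pocket protein, and E2f7 and E2f8 are repressors that bind DNA without a DP partner. In muscle precursors the pocket proteins silence E2F target genes when cells leave the cell cycle and differentiate.

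Septin9 itself, the target of the siRNA, stood at 429.7 and 441 CPM (its counts relative to the TMM-scaled library total) in the C2C12 controls and at 151 and 189 CPM after Septin9 siRNA. In primary myoblasts it stood at 365 and 459 CPM in the controls and at 199 and 157 CPM after Septin9 siRNA. All Septin9 siRNA samples were therefore below all controls, as the labels say. The 7 myoblast markers had a summed level between 726 and 5348 CPM per sample, of which Des (437 to 2412 CPM) was a large part. Msc was close to absent at 0.04 to 0.92 CPM, and the rest were found in every sample. The differentiation gene Myog was at 5.19 and 37.5 CPM in the C2C12 controls, which had been differentiated for 12 h, and at 1019.9 and 401 CPM in the primary myoblast controls, which are labelled as proliferating. The endothelial markers summed to at most 4.10 CPM and the immune markers to at most 4.38 CPM. The fibroblast markers summed to 9.15 CPM in primary myoblast control replicate 1 and to 68.6 CPM in control replicate 2. In the controls of the C2C12 line they summed to 44.5 and 78.3 CPM, mostly from Ly6a (34.1 and 59.6 CPM), so the sum alone does not tell fibroblasts from myoblasts. In such bulk samples, fewer cells of a type and less RNA per cell cannot be told apart.

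The siRNA is shown first, because part of its sequence recurs in 3 of the 10 members. Its target lies in the coding sequence of Septin9 at chr11:117356354-117356372 (GRCm38, plus strand) and was present in 5 of 5 coding transcripts of GENCODE release M21. Capitals mark bases 2 to 8 of the guide strand, its seed, and the heptamer that pairs with them.
Septin9 target: ccaacggcattGACGTGTa
siRNA guide: tACACGTCaatgccgttgg

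The heptamer GACGTGT was searched for in the transcript sequence that follows the stop codon of each member. It occurred once each in Tfdp1 (chr8:13378056-13378085), Tfdp2 (chr9:96320540-96320569) and E2f7 (chr10:110787356-110787384), all on the plus strand of GRCm38, and in none of the annotated transcripts of E2f1, E2f2, E2f3, E2f4, E2f5, E2f6 and E2f8. These windows are shown because they carry what the 3 members share, with the heptamer in capitals.
Tfdp1: aagtctatcatttaaaGACGTGTactgaaa
Tfdp2: gttgtcactccctgatGACGTGTagctgcc
E2f7: taaatgtatttagtaaGACGTGTatgtta

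In each of the 3 members the heptamer was followed by an A, the base opposite position 1 of the guide that the target in Septin9 also has. The Tfdp1 site was in 2 of 3 coding transcripts and lay 782 bases after the stop codon. The sites of Tfdp2 (2584 bases after the stop codon, 1 of 6 coding transcripts) and E2f7 (2533 bases, 1 of 4) were each in a single transcript with a long 3′ end, and the E2f7 site sits close to the annotated end of the gene. Which of these 3′ ends the cells used cannot be read from counts per gene.

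Tfdp1, the main DP partner of the E2F factors (chromosome 8, 13338725 to 13378448), had 196 and 126 CPM in the C2C12 controls and 86.4 and 68.3 CPM after Septin9 siRNA. The primary myoblast controls had 167 and 179 CPM, against 82.5 and 62.9 CPM after Septin9 siRNA. No sample with Septin9 siRNA reached the lowest control of its cell type. Tfdp1 was thus at 48.1% of the control mean in C2C12 cells and at 42.1% in primary myoblasts, with log2 fold changes of -1.03 ± 0.08 (SE, n = 2 pairs) and -1.26 ± 0.13 (SE, n = 2 pairs). Within replicate pairs the log2 ratio was -1.18 and -0.88 for C2C12 cells, and -1.02 and -1.51 for primary myoblasts. Among genes with at least 10 CPM in the controls, the fall of Tfdp1 ranked 3 of 10507 in C2C12 cells, where Septin9 ranked first, and 1 of 10307 in primary myoblasts, where Septin9 ranked 2.

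Tfdp2, the other DP partner (chromosome 9, 96196246 to 96323646), had 51.2 and 58.6 CPM in the C2C12 controls and 47.3 and 53.3 CPM after Septin9 siRNA. In primary myoblasts the values were 82.9 and 63.5 CPM in the controls and 67.6 and 56.8 CPM after Septin9 siRNA. Each sample with Septin9 siRNA was below the control of its own pair, but the ranges of the groups overlapped in both cell types. The log2 fold change was -0.12 ± 0.07 (SE) in C2C12 cells and -0.23 ± 0.11 (SE) in primary myoblasts, and Tfdp2 was not called in either, so no higher level of the second DP gene was seen beside the fall of the first.

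**Figure D1:**
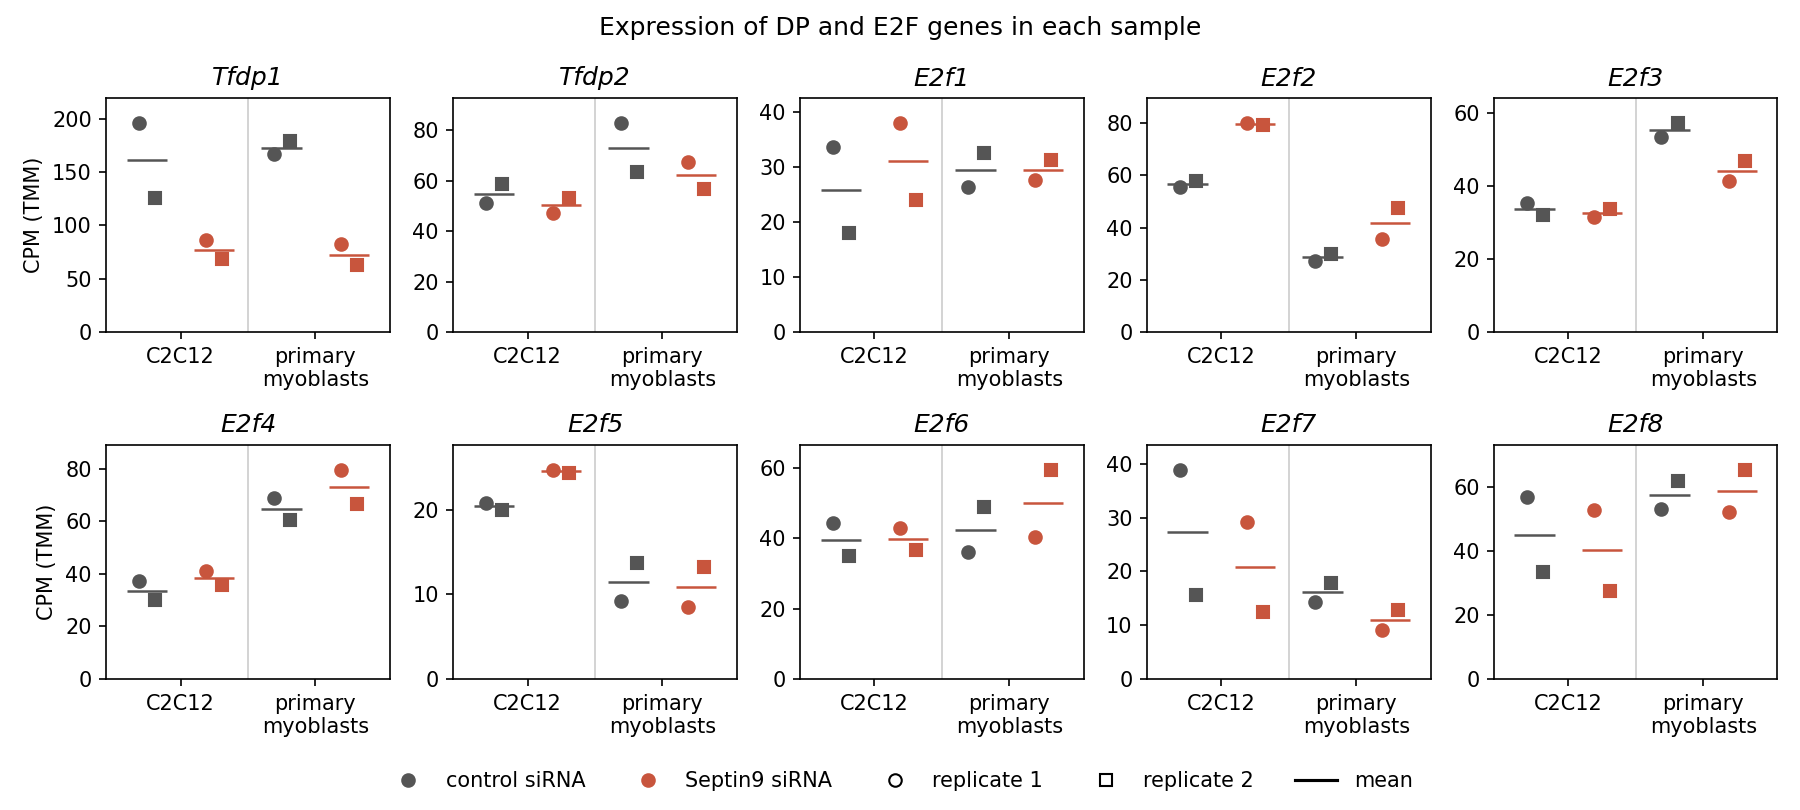
TMM-scaled CPM (y axes, each from 0) of the 10 DP and E2F genes in every sample, control siRNA in grey and Septin9 siRNA in red, with replicate 1 as circles, replicate 2 as squares and the mean of 2 as a line. Tfdp1 in the Septin9 siRNA samples (62.9 to 86.4 CPM) sits below all controls (126 to 196 CPM), E2f2 sits above its controls in both cell types, and E2f7 in C2C12 cells differs more between replicates than between siRNAs.

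E2f7, a repressor that works without a DP partner (chromosome 10, 110745439 to 110787384), was the other member called lower in both cell types. In C2C12 cells it had 38.8 and 15.7 CPM in the controls and 29.2 and 12.5 CPM after Septin9 siRNA, so that the ranges overlapped while both pairs were lower (log2 ratios -0.41 and -0.32). In primary myoblasts the controls had 14.4 and 17.9 CPM and the Septin9 siRNA samples 9.17 and 12.7 CPM, with no overlap. The log2 fold changes were -0.37 ± 0.09 (SE) and -0.57 ± 0.14 (SE). E2f8, the closest relative of E2f7, had log2 fold changes of -0.19 ± 0.07 (SE) and 0.03 ± 0.11 (SE), neither of them called. Both of its pairs were lower in C2C12 cells (log2 ratios -0.11 and -0.28).

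Among the activators, E2f2 rose in both cell types (chromosome 4, 136172274 to 136196057). It had 55.7 and 57.7 CPM in the C2C12 controls and 80.0 and 79.4 CPM after Septin9 siRNA. The primary myoblast controls had 27.2 and 29.9 CPM, against 35.8 and 47.4 CPM after Septin9 siRNA. Both cell types showed every Septin9 siRNA sample above every control, with log2 fold changes of 0.49 ± 0.07 (SE) and 0.53 ± 0.12 (SE). E2f1 was called higher in C2C12 cells, where the controls had 33.6 and 17.9 CPM and the Septin9 siRNA samples 38.0 and 24.1 CPM (log2 fold change 0.29 ± 0.09, SE), so that the ranges overlapped and the rise was within each pair. In primary myoblasts the log2 fold change of E2f1 was 0.00 ± 0.11 (SE), with 1 pair on either side of 0. E2f3 had a log2 fold change of -0.04 ± 0.08 (SE) in C2C12 cells with pairs of opposite sign. In primary myoblasts E2f3 stood at 53.5 and 57.3 CPM in the controls and 41.3 and 46.8 CPM after Septin9 siRNA, groups that did not overlap, but its log2 fold change of -0.33 ± 0.11 (SE) was not called.

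The repressors E2f4, E2f5 and E2f6 were not called in either cell type. E2f4 had log2 fold changes of 0.20 ± 0.08 (SE) in C2C12 cells and 0.18 ± 0.11 (SE) in primary myoblasts, positive in all 4 pairs. E2f5 had 20.8 and 20.0 CPM in the C2C12 controls and 24.7 and 24.4 CPM after Septin9 siRNA, which did not overlap. In primary myoblasts its values were 9.26 and 13.7 CPM against 8.57 and 13.3 CPM, so the replicates were further apart than the siRNAs. E2f6 had log2 fold changes of 0.01 ± 0.07 (SE) and 0.22 ± 0.11 (SE).

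Counts of called members (adjusted p under 0.05 in edgeR's quasi-likelihood test) only describe the choice of genes. In C2C12 cells 2 of 10 members were called higher (E2f1, E2f2) and 2 of 10 lower (Tfdp1, E2f7), where 2.64% of 15814 genes were called higher and 4.12% lower. In primary myoblasts 1 was called higher (E2f2) and 2 lower (Tfdp1, E2f7), where 3.95% of 17117 genes were called higher and 1.04% lower. All 10 members passed the filter on low counts in every fit. Without the replicate block no member was called in either cell type. With DESeq2 E2f1 and E2f7 were not called in C2C12 cells, nor E2f2 and E2f7 in primary myoblasts.

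**Figure D2:**
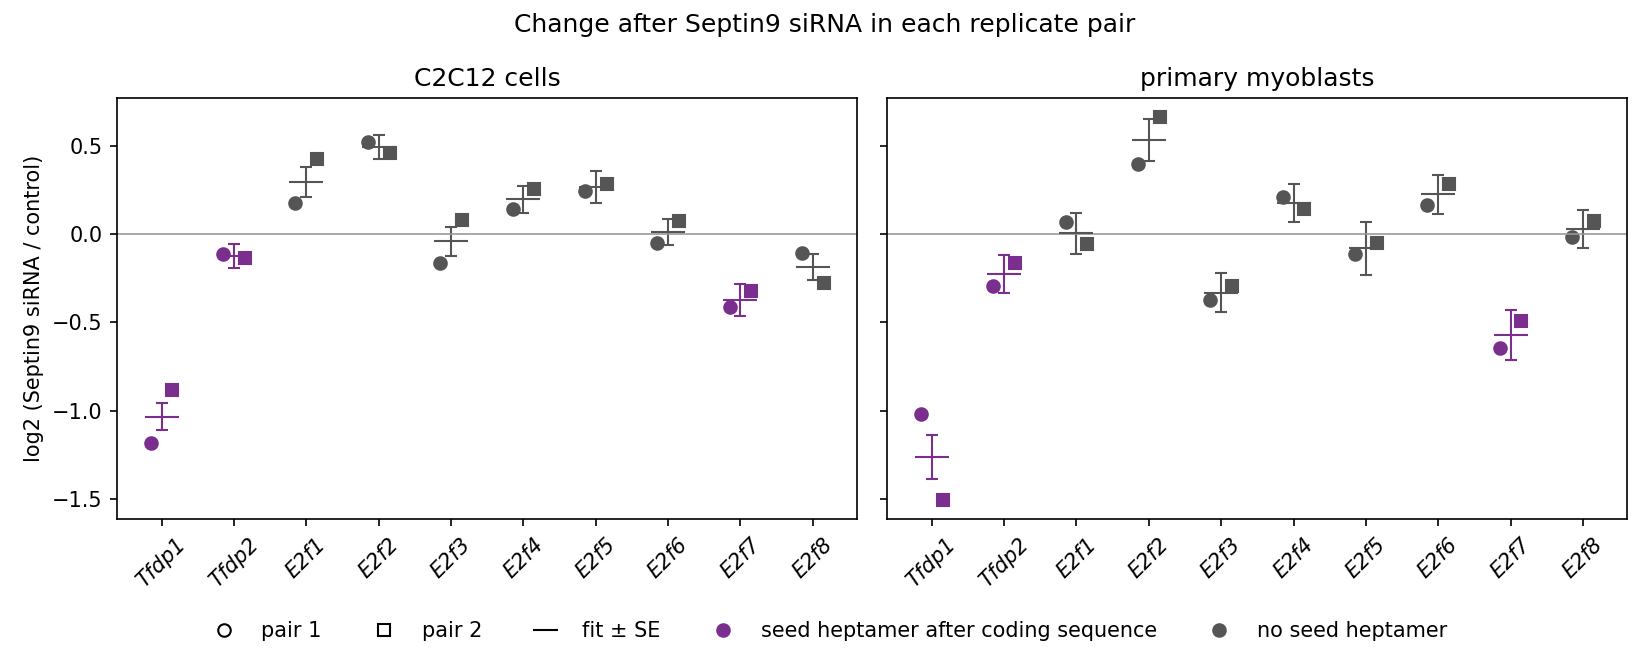
Log2 ratio of Septin9 siRNA to control (y axis) for the 10 members in C2C12 cells (left) and primary myoblasts (right), with replicate pairs 1 (circles) and 2 (squares) and the fitted value with its standard error (bars); purple genes carry the seed heptamer after the coding sequence. The 12 pair ratios of the purple genes are all below 0, and 10 of the 28 pair ratios of the grey genes are. The ratios of Tfdp1 were fixed on that side by the choice of genes, so both counts are only a description.

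The members with the heptamer lay on the lower side in every pair, at -1.51 to -0.11, and the 7 members without it at -0.37 to 0.66. For Tfdp1 this side was fixed by the choice of genes. Tfdp2 and E2f7 lay at -0.65 to -0.11, and Tfdp2 was not called in either cell type. Across all genes with an annotated sequence after the stop codon, 3.28% of those tested in C2C12 cells and 3.32% of those tested in primary myoblasts held the heptamer, against 3 of the 10 members. The 406 genes with the heptamer in C2C12 cells had a median change of -0.12 (log2), and 21.4% of them were called lower, against 4.03% of genes without it. In primary myoblasts the 442 genes with the heptamer had a median of -0.11, and 10.4% were called lower, against 0.878% of genes without it. A gene was taken to hold the heptamer if any of its annotated coding transcripts did. Genes with and without it were not matched for the length of this sequence or the number of transcripts. For the heptamer followed by an A, a split made after the sites of the members had been seen, the medians were -0.19 over 78 genes and -0.23 over 86 genes. The part of the seed in the values of Tfdp1, Tfdp2 and E2f7 was not tested, since the samples hold no other Septin9 siRNA.

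The genes whose 4 pair ratios were most like those of Tfdp1, by the root mean square difference among 9505 genes, were Get1 (0.199), its further listed copy Get1_1 (0.210), Alg2 (0.213), Septin9 (0.246) and Cks1b (0.302). Get1 and its copy are 1 symbol listed more than once, so their reads may have been split, and their transcripts were not searched for the heptamer. Alg2, an enzyme of N-glycan assembly (chr4:47470100-47470129), and Cks1b, a subunit of cyclin-dependent kinases (chr3:89415598-89415627), also hold the heptamer after their stop codon, on the minus strand of GRCm38, there followed by a T. The ranking used the pair ratios on which Tfdp1 had been chosen for its fall, so the genes near it fell too. Of all tested genes with an annotated sequence after the stop codon, 3.28% (C2C12 cells) and 3.32% (primary myoblasts) held the heptamer. Those genes were not picked for a fall, so the sites in Alg2 and Cks1b are a description without a test. The windows of Alg2 and Cks1b are shown for comparison with that of Tfdp1.
Alg2: taagcttcatatttcaGACGTGTttcttaa
Cks1b: atggtgtgaatttgctGACGTGTtttttac

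Of the other members E2f7 was closest to Tfdp1, at rank 64 with a difference of 0.72, and E2f2 was the farthest, at rank 9433 with a difference of 1.69.

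The balance between DP and E2F transcripts was followed within each sample, on levels per kilobase of exon, where the scaling between samples cancels. The ratio of Tfdp1 to Tfdp2 was 11.6 and 6.51 in the C2C12 controls and 5.52 and 3.88 after Septin9 siRNA. In primary myoblasts it was 6.09 and 8.52 in the controls and 3.69 and 3.35 after Septin9 siRNA. Tfdp1 remained the more abundant DP transcript in all 8 samples. The sum of both DP genes relative to the sum of the 8 E2F genes was 0.87 and 0.77 in the C2C12 controls and 0.39 and 0.40 after Septin9 siRNA. In primary myoblasts the same ratio was 0.82 and 0.77 against 0.42 and 0.29. E2f7 made up 5.05% and 2.65% of the E2F sum in the C2C12 controls and 3.54% and 1.84% after Septin9 siRNA, and 1.94% and 2.19% against 1.16% and 1.43% in primary myoblasts. E2f1 relative to E2f7, an activator relative to a repressor, was 2.17 and 2.86 in the C2C12 controls and 3.26 and 4.81 after Septin9 siRNA. In primary myoblasts that ratio was 4.59 and 4.54 against 7.53 and 6.14, where E2f1 itself had a log2 fold change of 0.00. The share of the 3 activators E2f1, E2f2 and E2f3 in the E2F sum did not move the same way in both cell types. It was 29.8% and 31.7% in the C2C12 controls and 33.4% and 35.7% after Septin9 siRNA. In primary myoblasts this share was 25.6% and 26.3% against 24.0% and 25.4%. These ratios and shares use the values that chose the members and are descriptions as well.

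**Figure D3:**
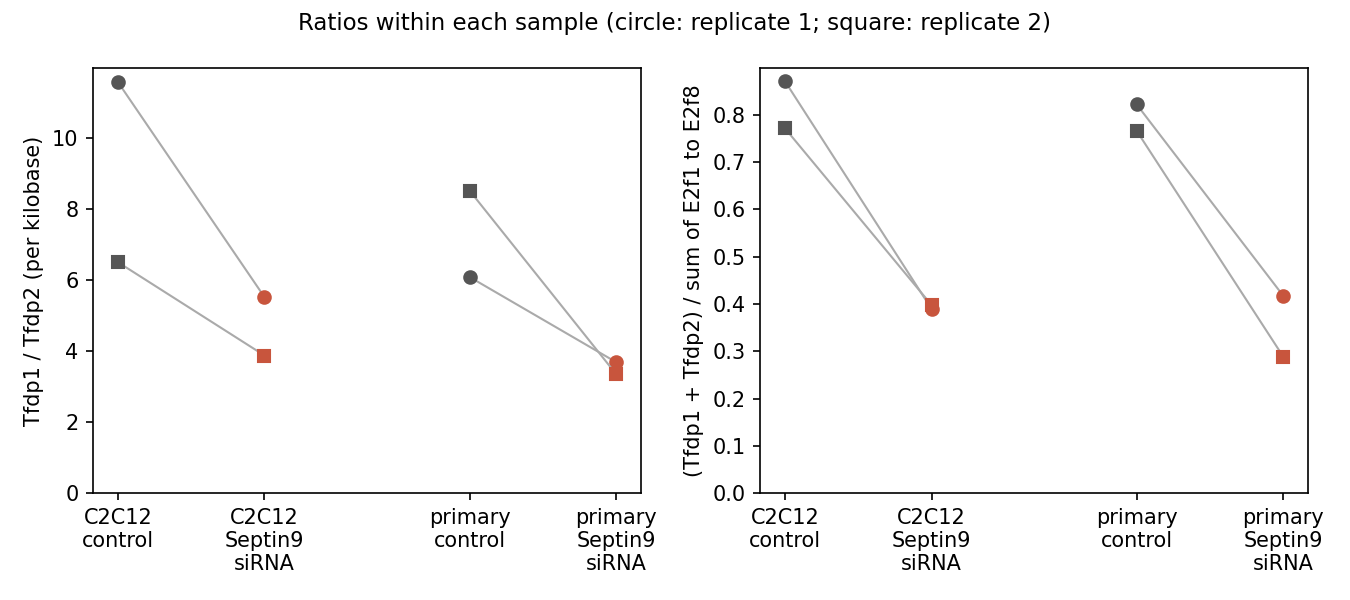
Ratio of Tfdp1 to Tfdp2 (left y axis) and of both DP genes to the sum of E2f1 to E2f8 (right y axis), from levels per kilobase within each sample, with lines joining the control (grey) and Septin9 siRNA (red) sample of a replicate pair. The Septin9 siRNA sample is below the control in each of the 4 pairs and both panels, and the right panel holds 0.77 to 0.87 in the controls and 0.29 to 0.42 after Septin9 siRNA.

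Levels in the controls were ordered on the same scale, CPM per kilobase of exon. Tfdp1 was first in both cell types, at 61.9 ± 17.6 (SD, n = 2) in C2C12 cells and 70.9 ± 3.49 (SD, n = 2) in primary myoblasts, and its lowest control (49.4) was above the highest control of any other member (35.5, E2f4 in primary myoblasts). In C2C12 cells E2f4 (16.3 ± 2.14) and E2f6 (15.8 ± 2.30) followed and overlapped. Then came E2f2 (11.6 ± 0.56), E2f8 (11.2 ± 3.91) and E2f5 (11.1 ± 0.04). E2f8 overlapped with E2f2 and E2f5, while both E2f2 controls (11.20 and 11.99) were just above both E2f5 controls (11.14 and 11.09). E2f1 (7.88 ± 3.23) overlapped with E2f8, Tfdp2 (7.01 ± 0.83) and E2f3 (6.08 ± 0.28). Tfdp2 stood just above E2f3, and E2f7 was last (3.32 ± 1.93). In primary myoblasts E2f4 was second at 33.4 ± 2.97, clear of all other members. E2f6 (18.1 ± 3.86) and E2f8 (15.3 ± 1.70) overlapped, as did E2f3 (10.6 ± 0.52), Tfdp2 (9.92 ± 1.86) and E2f1 (9.62 ± 1.42). E2f5 (6.65 ± 1.84) and E2f2 (6.21 ± 0.43) also overlapped, and E2f7 was again last at 2.11 ± 0.33.

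**Figure D4:**
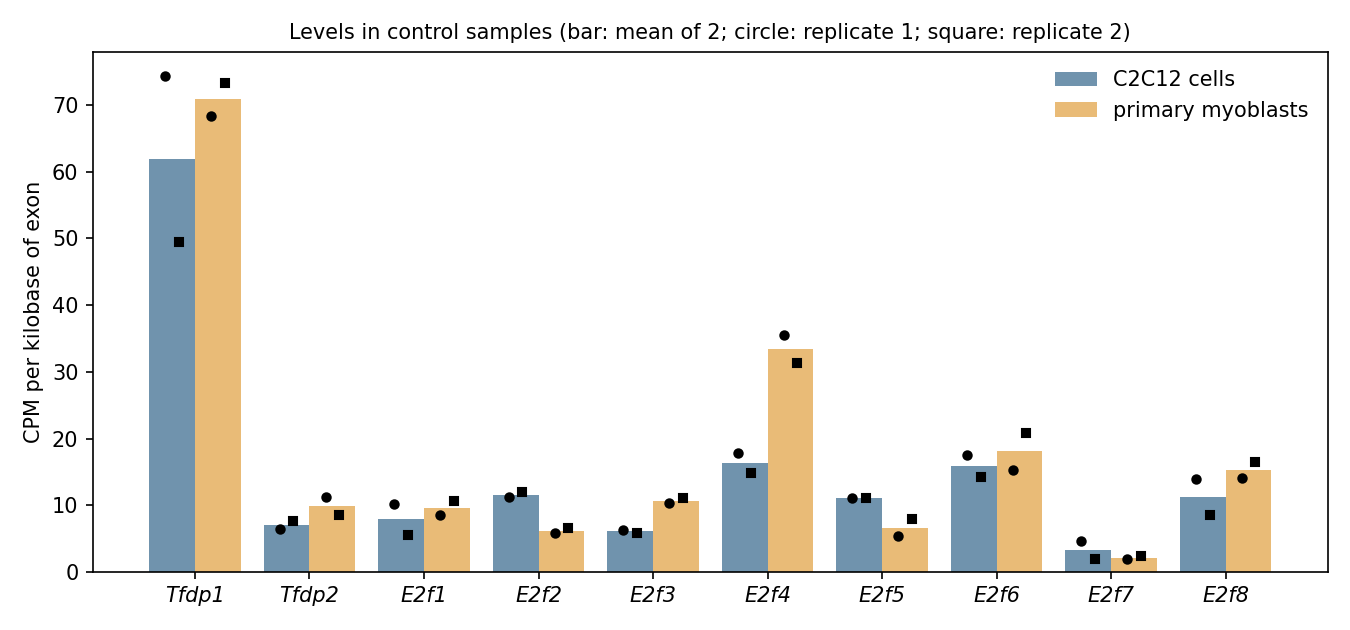
Levels of the 10 members in the control samples as TMM-scaled CPM per kilobase of exon (y axis, from 0), with bars for the mean of 2 and points for each replicate (circle 1, square 2). Tfdp1 is highest in both cell types, and E2f4 is second and higher in primary myoblasts (33.4) than in C2C12 cells (16.3).

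The comparison of the control samples of both cell types was not used to choose the members and was tested. The CPM here are on a common scale of all 8 samples, while the log2 differences and p-values are from the fit of the 4 controls. E2f4 had 35.5 and 29.4 CPM in C2C12 cells and 70.8 and 62.4 CPM in primary myoblasts. The log2 difference was -1.05 ± 0.17 (SE, adjusted p = 0.0138 by the quasi-likelihood test of edgeR, with Benjamini-Hochberg correction over 17103 genes). E2f3 was also lower in C2C12 cells, with 33.7 and 31.5 CPM against 55.1 and 59.0 CPM (-0.82 ± 0.14, adjusted p = 0.0155, edgeR). E2f2 was higher in C2C12 cells, with 53.1 and 56.8 CPM against 28.0 and 30.9 CPM (0.89 ± 0.14, adjusted p = 0.0138, edgeR). Thus 1 of 10 members was called higher and 2 of 10 lower in C2C12 cells, where 16.2% of all genes were called higher and 18.3% lower, so the members did not stand out from the genes as a whole. Tfdp1 did not differ detectably, with 187 and 124 CPM in C2C12 cells against 172 and 184 CPM (log2 difference -0.20, adjusted p = 0.519, edgeR), and neither did Tfdp2, E2f1, E2f5, E2f6, E2f7 and E2f8 (adjusted p from 0.0782 to 0.504). Cell line, differentiation and time after transfection differ together here and cannot be told apart. Without C2C12 control replicate 1 or replicate 2 none of the 3 members was called (adjusted p from 0.0527 to 0.0907, edgeR). Without primary myoblast control replicate 2 E2f3 was not called (adjusted p = 0.0550, edgeR) and E2f5 was called higher in C2C12 cells (adjusted p = 0.0396, edgeR).

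The difference between the 2 replicates was independent of the siRNA contrast and was tested in the same fits. In C2C12 cells 7 of 10 members were called, where 35.7% of all genes were called in either direction. Replicate 2 was lower than replicate 1 for E2f7 (-1.27 on the log2 scale, adjusted p = 2.67e-09 from edgeR), E2f8 (-0.86, adjusted p = 3.55e-08) and E2f1 (-0.78, adjusted p = 9.23e-07). It was also lower for Tfdp1 (-0.50), E2f6 (-0.29) and E2f4 (-0.26), and higher for Tfdp2 (0.18). E2f2 (0.02), E2f3 (-0.03) and E2f5 (-0.04) were not called. Of these called members, Tfdp2, E2f1, E2f4, E2f6, E2f7 and E2f8 had a replicate difference larger in size than their log2 fold change after Septin9 siRNA in C2C12 cells. The replicate difference of Tfdp1 was smaller than its fold change. In primary myoblasts 3 members were called, E2f5 (0.60, adjusted p = 0.00606 from edgeR), E2f6 (0.50, adjusted p = 0.00225) and Tfdp2 (-0.32, adjusted p = 0.0367), where 24.5% of all genes were called. Replicates are separate experiments, and this fit takes the control and the Septin9 siRNA sample of an experiment as its replicates. The p-values therefore measure the spread left within these samples and not the spread between experiments. Myog was at 5.19 CPM in C2C12 control replicate 1 and at 37.5 CPM in control replicate 2, while in the primary myoblast controls it was at 1019.9 CPM in replicate 1 and 401 CPM in replicate 2, and the fibroblast markers summed to 9.15 and 68.6 CPM. The part of these differences in the values of the E2F and DP genes was not tested.

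The genes that E2F factors are known to drive were followed with a list of 49 targets, of which 48 were tested. After Septin9 siRNA 0 were called higher and 3 lower in C2C12 cells by edgeR, 6.25% lower against 4.12% of all genes, and 13 of 48 had an unadjusted p under 0.05, as did 18.7% of all genes. The median log2 fold change of the list was -0.02 in C2C12 cells, with 29 of 48 genes below 0, beside a median of 0.00 over all genes. The median by pair had opposite signs there, -0.08 in pair 1 and 0.06 in pair 2. In primary myoblasts 0 were called higher and 5 lower, 10.4% against 1.04% of all genes, and 27 of 48 had an unadjusted p under 0.05, as did 16.7% of all genes. The median was -0.26 beside 0.01 over all genes, and 47 of 48 targets were below 0, against 48.3% of all genes. There both pairs had a negative median, -0.24 and -0.30.

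Of the targets, Dck, a kinase that salvages deoxynucleosides, fell in both cell types. It had 41.2 and 18.9 CPM in the C2C12 controls against 32.3 and 15.1 CPM after Septin9 siRNA, and 39.3 and 38.6 CPM against 30.3 and 24.8 CPM in primary myoblasts (log2 fold changes -0.34 and -0.51). In C2C12 cells the cyclin Ccna2 (-0.34) and its kinase Cdk1 (-0.23) were also called lower, Cdk1 close to the threshold (adjusted p = 0.0498, edgeR). Ccna2 had 262 and 123 CPM in the controls against 197 and 103 CPM, and Cdk1 147 and 71.8 CPM against 127 and 60.5 CPM. In C2C12 cells the ranges of Dck, Ccna2 and Cdk1 overlapped, and the fall was within each pair. In primary myoblasts the chromatin assembly subunit Chaf1b (-0.48), the apoptosis factor Apaf1 (-0.48) and Mybl2 (-0.46) were called lower. Mybl2, a transcription factor of the MuvB complex, stood in a second list too. In the same samples the differentiation gene Myog was at 5.19 and 37.5 CPM against 15.9 and 63.7 CPM after Septin9 siRNA in C2C12 cells, and at 1019.9 and 401 CPM against 1549.6 and 908 CPM in primary myoblasts, and its part in the values of the target genes was not tested.

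**Figure D5:**
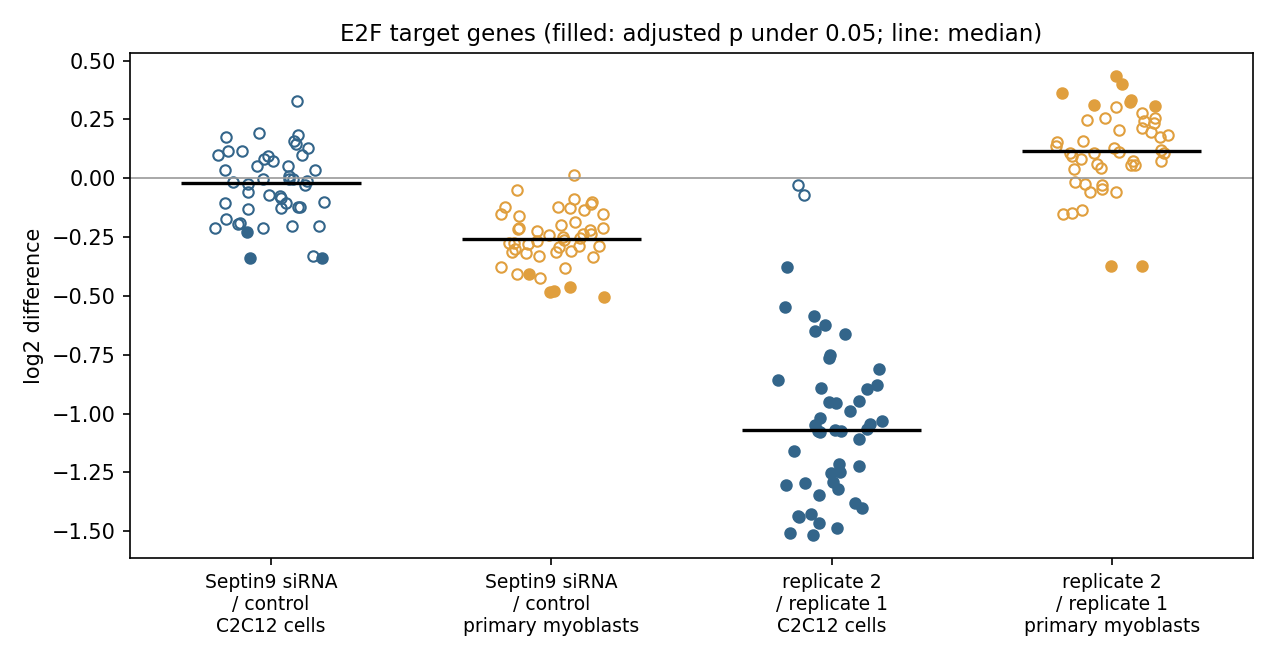
Log2 differences (y axis) of the 48 tested E2F target genes after Septin9 siRNA (left) and between replicates (right) in C2C12 cells (blue) and primary myoblasts (orange), with filled points for an adjusted p under 0.05 and a line for the median. The median between C2C12 replicates (-1.07) lies further from 0 than the medians after Septin9 siRNA (-0.02 and -0.26).

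Between the C2C12 replicates 46 of 48 targets were called, all lower in replicate 2, where 35.7% of all genes were called in either direction, with a median of -1.07 beside 0.01 over all genes, and Ccna2 stood at 262 and 123 CPM in the 2 controls. Between the primary myoblast replicates 7 were called higher and 2 lower in replicate 2, where 24.5% of all genes were called, with a median of 0.12. Between C2C12 replicates the target genes were thus lower on the same side as E2f1, E2f4, E2f6, E2f7, E2f8 and Tfdp1. Tfdp2 was higher there, and E2f2, E2f3 and E2f5 were not called.

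Among the pocket proteins and their MuvB partners 0 of 10 were called in C2C12 cells by edgeR, and in primary myoblasts 0 were called higher and 1, Mybl2, lower. Of the 10 genes of the E2f6 repressor complex 1 was called in C2C12 cells, Ring1, a ubiquitin ligase of Polycomb complexes, which rose from 16.9 and 17.6 CPM to 20.0 and 25.7 CPM (log2 fold change 0.41), and 0 were called in primary myoblasts. Of all genes tested in C2C12 cells 2.64% were called higher and 4.12% lower, while the shares for primary myoblasts were 3.95% and 1.04%. Of 6 tested genes of E2F protein turnover the same 2 fell in both cell types, Fzr1, an activator of the anaphase-promoting complex, and Ccnf, the F-box protein cyclin F. Fzr1 had 73.0 and 48.3 CPM in the C2C12 controls and 46.6 and 36.0 CPM after Septin9 siRNA, and 46.9 and 48.4 CPM against 34.0 and 37.0 CPM in primary myoblasts. Its log2 fold changes were -0.54 and -0.43, and those of Ccnf were -0.30 and -0.44.

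Promoters were searched for E2F sites because E2F genes are themselves targets of the family. RefSeq promoters of GRCm38.p6, 250 bases before to 50 after each annotated start, were held for 8 of the 10 members. For E2f1, E2f8 and Tfdp2 all windows held lay inside the annotated span of the gene. The sequence at the outer start of these genes was therefore not searched, and a lack of words there cannot be read from this. The words TTTGGCGC, TTTCCCGC, TTTCGCGC and TTTGCCGC were searched on both strands. A word was found in 4 of these 8 members, Tfdp1, E2f2, E2f3 and E2f7, and in 2.26% of all 32851 promoters. Of genes tested in either cell type 4.23% held one, and of the target list 19 of 41 (46.3%). The windows are shown on the strand of the gene, with the word in capitals, for Tfdp1 (chr8:13338697-13338726), E2f2 (chr4:136172302-136172323), E2f3 (chr13:29986056-29986085, a minus-strand gene) and E2f7 (chr10:110745230-110745259).
Tfdp1: gggcgccgaagGCGCGAAAaggcgcgcagg
E2f2: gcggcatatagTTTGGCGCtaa
E2f3: ttgaaaagccgGCGGGAAAtctgagtttcg
E2f7: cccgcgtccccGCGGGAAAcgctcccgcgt

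The word began 198 bases before the start in E2f7, 11 bases before it in E2f3 and 39 bases after it in E2f2, and in Tfdp1 43 or 96 bases before it, depending on which of its annotated starts is taken. E2f2 and E2f3 each have another annotated promoter in the table, which holds none of the words. Of these 4 genes, Tfdp1 and E2f7 were called lower and E2f2 higher after Septin9 siRNA in both cell types, and E2f3 was called in neither. These directions are a description, since Tfdp1 was chosen for its fall, and the part of such words in them was not tested. A match of letters is not a bound site, and no binding was measured in these samples.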

How the data were processed

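RNA-seq of 8 samples was analysed. The authors mapped reads to GRCm38.p6 with STAR 2.7.2, counted reads per gene with featureCounts 2.0.1 and deposited raw counts. The deposited normalized signal of each cell type holds ComBat-Seq counts divided by DESeq2 size factors (DESeq2 1.40.1 in the submitters' notes). Its values were whole reads in 100% of cases within 0.01, and these were recovered for an alternative. Annotation release and strandedness of counting are uncertain: the methods name Gencode, whereas the table's remnants hold RefSeq identifiers. The 16 broken lines of the count matrix were left out.

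Counts were fitted per cell type in R 4.3.3 with edgeR 4.0.16 (filterByExpr, TMM, quasi-likelihood test, Benjamini-Hochberg adjustment over all genes tested), with the replicate number as a block, since the methods state independent experiments. Deviations of same-numbered samples had a correlation of 0.68 (C2C12 cells) and 0.82 (primary myoblasts). The 4 control samples were fitted without a block. Pair ratios are log2 CPM with a prior count of 2. Exon lengths and transcripts were from GENCODE M21, promoters from RefSeq, and the siRNA sequence, stated in the study, was read from the Septin9 transcript. Python 3.11.15, pandas 2.3.3 and matplotlib 3.10.9 served the other steps. The fits were tested on simulated data.

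The members and the gene lists were chosen with earlier results of these data known, and no list is independent support. Named genes are the 10 members, Septin9, the 5 genes most like Tfdp1, and per list and cell type up to 3 called genes with the largest rise and fall in both pairs. Trp73 did not pass the filter and Skp1a was not matched. Myog was named after its values were seen. Alternatives were RLE size factors, library size alone, other filters on low counts, DESeq2 1.42.0, no replicate block, DESeq2 on the batch-corrected counts of the authors, a fit of all 8 samples together, and leaving out replicates. Another gene length was added after the data were examined. With 20898611 to 27223414 counted reads per sample, precision rests on 2 replicates per group. Proteins were not analysed here.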

Additional observations from a re-analysis of the deposited data

Results flagged for a closer look

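E2f5 had log2 ratios of 0.25 and 0.28 in the pairs of C2C12 cells and of -0.11 and -0.05 in those of primary myoblasts, opposite in sign in every pair. Its log2 fold changes were 0.26 and -0.08, neither of them called, and the difference between the cell types was not tested. E2f5 was also among the least abundant members per kilobase in primary myoblasts, and its control replicates there differed by more than the siRNAs, at 9.26 and 13.7 CPM.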

How the results depend on the processing

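The fitted direction of Tfdp1, Tfdp2, E2f2, E2f4, E2f5 and E2f7 after Septin9 siRNA was the same under all 10 alternatives in each cell type. Calls depended on the processing, and the cause was not tested. In C2C12 cells 1068 genes, 4 members and 3 E2F targets were called, against 283, 2 and 1 with DESeq2, 111, 2 and 0 with all 8 samples in one fit, and 98 to 181, 1 to 1 and 0 to 0 without a replicate pair. DESeq2 on the batch-corrected counts called 820 genes and 2 members there. With no replicate block edgeR called 0 genes, members and targets in both cell types (372 and 378 genes at an unadjusted p under 0.05). In primary myoblasts 854 genes, 3 members and 5 targets were called, against 295, 1 and 0 with RLE size factors, 236, 1 and 1 with library size alone, and 256, 1 and 0 with DESeq2. DESeq2 on the batch-corrected counts called 931 genes and 11 targets, and leaving out a replicate pair gave 1277 to 2020 genes, 4 to 4 members and 8 to 20 targets. Between replicates DESeq2 called 4 members in place of 7 in C2C12 cells and 1 in place of 3 in primary myoblasts. Between the controls 5901 genes and 3 members were called, and 512 to 4760 genes and 0 to 3 members without 1 control replicate, where the 3 without primary myoblast control replicate 2 were E2f2, E2f4 and E2f5. Without 1 control replicate the log2 control difference ranged from -0.51 to 0.074 for Tfdp1, -0.77 to 0.085 for E2f1, -0.38 to 0.053 for E2f6 and -0.10 to 1.16 for E2f7, so its sign changed without C2C12 control replicate 2 (Tfdp1, E2f1), primary myoblast control replicate 2 (E2f6) or C2C12 control replicate 1 (E2f7). With a replicate block in place of none, E2f2, E2f3 and E2f4 were called between the controls as before (adjusted p 0.0328, 0.0414 and 0.0227 from edgeR). With a replicate left out, the lone sample is assumed to vary like the other groups.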
